A study of Homo sapiens with 12 samples.

Results

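Deoxynucleotide supply was examined through 9 genes: RRM1, RRM2 and RRM2B for ribonucleotide reductase, TYMS, TK1, DUT and DTYMK for the thymidylate branch, CAD for pyrimidine synthesis and SAMHD1 for dNTP breakdown. They were chosen by name, and all 9 were found among the 25914 genes that both deposited tables list. RNA was sequenced from HCT116, an epithelial cell line from colon, and from RPE-1 hTERT, an epithelial line from retina immortalized with telomerase, both labelled wild-type. Each line was treated with 10 µM Nutlin-3a or with the solvent DMSO for 24 h, giving 4 groups of 3 libraries and 12 libraries in all. Nutlin-3a blocks MDM2, the ubiquitin ligase that keeps p53 low. The design thus compares solvent-treated cells with cells given a p53 activator within each line. No column used here belongs to a single library. The fold changes and p-values in the tables are the authors' own comparison and were not used. No change with Nutlin-3a, no difference between HCT116 and RPE-1 and no spread between replicates is therefore given for these genes.

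The measurement described is the base mean, the authors' mean of the normalized read count of a gene over a set of libraries. It was the same in both tables for every gene, with 0 differing values, so it belongs to neither cell line. Which libraries were averaged is not stated. Both treatments enter 1 average wherever their libraries do, so a gene that is high in one group and low in another stands between them. The base mean has no error and no number of replicates, and the depth of single libraries is unknown.

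DNA synthesis draws on 4 deoxynucleotides that are kept in balance by making, salvaging and degrading them. Ribonucleotide reductase converts ribonucleotides into deoxyribonucleotides. Its catalytic subunit is RRM1, and its small subunit is either RRM2, which is made in S phase, or RRM2B, a p53 target that serves repair and mitochondrial DNA outside S phase. For thymidine nucleotides, thymidylate synthetase (TYMS) methylates dUMP, thymidine kinase 1 (TK1) salvages thymidine, dUTPase (DUT) turns dUTP into dUMP and keeps uracil out of DNA, and thymidylate kinase (DTYMK) makes dTDP from dTMP. CAD carries the first steps of pyrimidine synthesis, and SAMHD1 splits dNTPs into deoxynucleosides and triphosphate.

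All 9 genes had a base mean above the median of the 15758 protein-coding genes listed, which was 651. Reads were counted over exons, so a longer gene collects more of them, and a base mean places a gene by its reads and not by its level. Per kb of all annotated exons, 8 of the 9 genes lay above the median of 120 normalized counts over the 15740 protein-coding genes with a length, and their own median was 532. No test was made, since no replicate values stand behind a base mean and the genes were chosen with results of these data known.

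**Figure D1:**
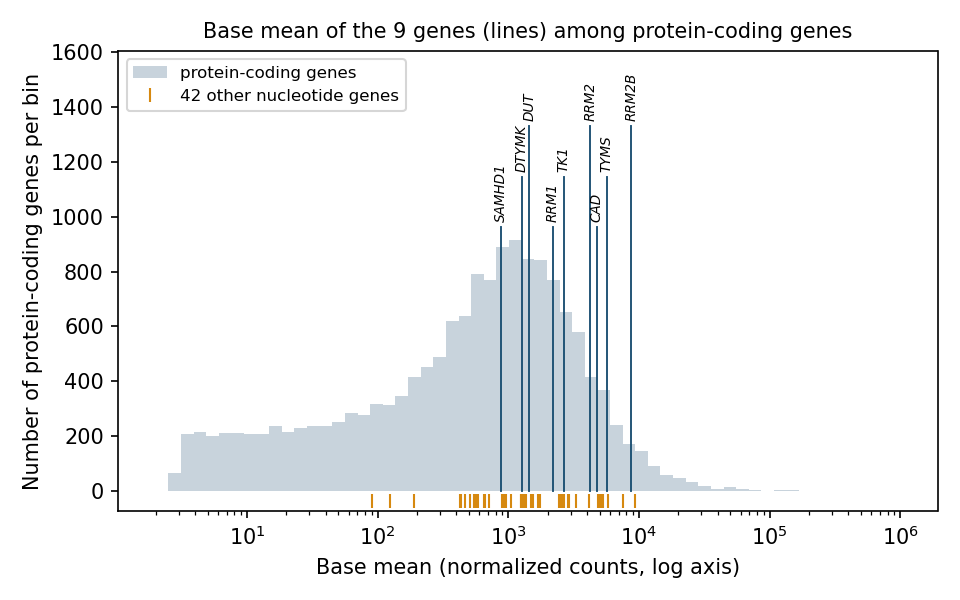
The histogram shows the base mean (normalized counts, log axis) of the protein-coding genes, with the number of genes per bin on the vertical axis. Lines mark the 9 deoxynucleotide genes, which lie between 874 for SAMHD1 and 8740.1 for RRM2B with no correction for length, and orange ticks below the axis mark the 42 other nucleotide genes.

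Of the ribonucleotide reductase genes, the small subunit RRM2B had the highest level per kb of exons in the base mean, which is not split by treatment or cell line. The authors' base mean of RRM2B (ENSG00000048392) was 8740.1, and its level per kb was above that of 96.2% of the protein-coding genes. The gene lies on the minus strand of chromosome 8 of GRCh38, from 102204502 to 102238961. RRM2 (ENSG00000171848), the S phase small subunit, had a base mean of 4256 and a level per kb higher than 82.6% of the protein-coding genes. It lies on the plus strand of chromosome 2 from 10120698 to 10211725. The catalytic subunit RRM1 (ENSG00000167325) had a base mean of 2193 and a level per kb above 84.6% of the protein-coding genes. Its position is chromosome 11, plus strand, from 4094707 to 4138932.

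Per kb of all annotated exons, the level of RRM2B was 1621 normalized counts, that of RRM1 518 and that of RRM2 465. The level per kb of RRM2B was thus 3.49-fold that of RRM2 and 3.13-fold that of RRM1. Both ratios are of the base mean, and their values in single groups are unknown here. RRM2 carries 9153 bases of annotated exons but a longest transcript of 3673 bases. Dividing by the longest transcript gave 1159 normalized counts per kb for RRM2, 693 for RRM1 and 1831 for RRM2B. RRM2B stood above RRM1 and RRM2 under either length, while the order of RRM1 and RRM2 depended on the length used. By the longest transcript, RRM2B was 1.58-fold RRM2, and RRM2 was 1.67-fold RRM1.

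In the thymidylate branch, TYMS had the highest level per kb of exons, followed by the salvage kinase TK1, and the thymidylate kinase and dUTPase genes lay lower. TYMS (ENSG00000176890), on the plus strand of chromosome 18 from 657653 to 673578, had a base mean of 5681. TK1 (ENSG00000167900), on the minus strand of chromosome 17 from 78174091 to 78187233, had 2662. DUT (ENSG00000128951), on chromosome 15 from 48331011 to 48343373, plus strand, had 1445. For DTYMK (ENSG00000168393), on the minus strand of chromosome 2 from 241675747 to 241686944, the base mean was 1276. By level per kb of exons, TYMS exceeded 97.7% of the protein-coding genes and TK1 95.6%, whereas DTYMK exceeded 85.0% and DUT 79.2%.

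Per kb of exons, TYMS had the highest level of all 9 genes, 2346 normalized counts, and TK1 the third highest, 1443. The level per kb of TYMS was 1.63-fold that of TK1 and 5.97-fold that of DUT. By the longest transcript these ratios were 2.22 and 5.22, and by coding length 1.82 and 3.17. DTYMK and DUT had 532 and 393 normalized counts per kb of exons. Per kb of the longest transcript DTYMK had 1172 and DUT 675, so that DTYMK was the higher of both under either length.

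CAD and SAMHD1 mark the opposite ends of the route, synthesis and breakdown. CAD (ENSG00000084774), on the plus strand of chromosome 2 from 27217369 to 27243943, had a base mean of 4743. Its longest transcript, 7286 bases, is the longest among the 9, and its level per kb of exons was 562 normalized counts, above 85.8% of the protein-coding genes. SAMHD1 (ENSG00000101347), on the minus strand of chromosome 20 from 36890229 to 36951893, had a base mean of 874. SAMHD1 had the lowest level per kb of exons of the 9, 80.6 normalized counts, above 41.4% of the protein-coding genes and against their median of 120. It was the only one of the 9 genes below that median, and its 10835 bases of exons from 30 annotated transcripts make its divisor the largest.

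**Figure D2:**
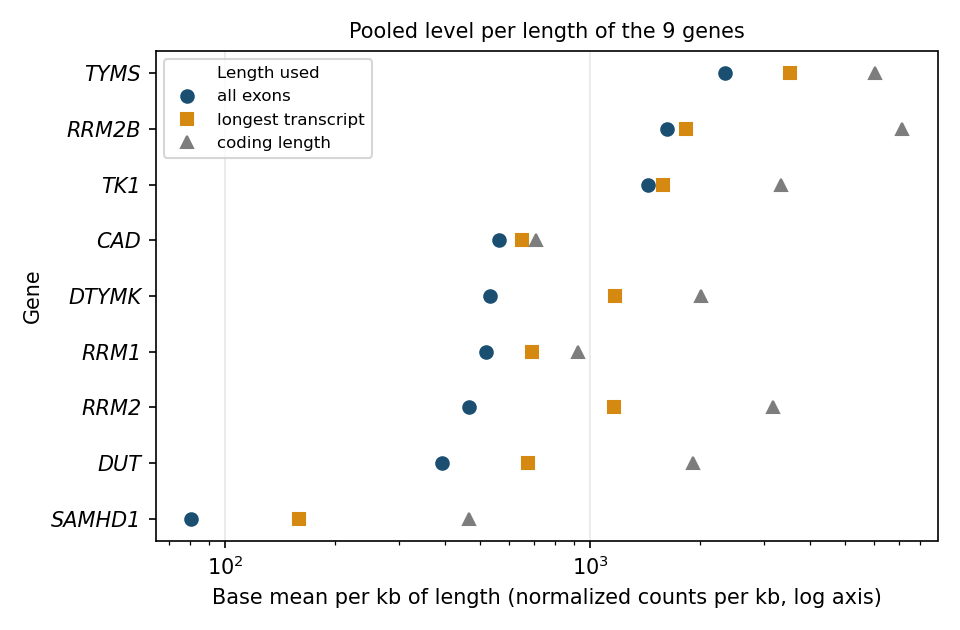
Each row is 1 gene, and the horizontal log axis gives its base mean divided by kb of all exons (circles), of the longest transcript (squares) or of coding sequence (triangles). TYMS, RRM2B and TK1 take the first 3 places with each length, RRM2B leading by coding length, and SAMHD1 is last with each.

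By level per kb of exons the order was TYMS, RRM2B, TK1, CAD, DTYMK, RRM1, RRM2, DUT and SAMHD1. The highest was 29.1-fold above the lowest. Without replicate values, no statement can be made on which neighbours in this order differ beyond their spread. The places from CAD at 562 to DUT at 393 normalized counts per kb changed with the length used. CAD took place 4 by exons but place 8 by the longest transcript and by coding length.

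Transcripts of other genes overlap some of the 9. TYMS shares 967 exon bases with ENOSF1 and 193 with the antisense RNA gene TYMSOS, both on the opposite strand, with base means of 583 and 237. The antisense gene DUT-AS1 shares 533 exon bases with DUT and had a base mean of 25.7. SAMHD1 shares 1068 exon bases with TLDC2 on the opposite strand, which had a base mean of 4.52. RRM1-AS1, which shares 63 exon bases with RRM1, is not among the listed genes. The kit marks strand, and the paper's methods state that counting followed it. Those methods cover RPE-1 but do not mention HCT116.

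Processed pseudogenes named after 3 of the genes were listed as well. If only uniquely mapped reads were kept, as in the paper's methods, reads fitting a pseudogene and its parent equally would count for neither. How many such reads there were is unknown here. RRM2P3 had a base mean of 282, or 6.63% of that of RRM2, and RRM2P2 one of 28.9. For TYMS, TYMSP2 had 34.8, and for DUT, DUTP5 and DUTP7 had 12.2 and 18.6. Each of the latter stood at most at 1.29% of the base mean of its parent.

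Another 42 genes of nucleotide synthesis and salvage, among them the purine, folate and deoxynucleoside kinase genes, were all listed. Per kb of exons, their median was 335 normalized counts, between the 120 of all protein-coding genes and the 532 of the 9 genes. Of the 42, 34 lay above the median of the protein-coding genes by level per kb, and 32 did by base mean. The extremes by base mean were NT5M, a mitochondrial deoxynucleotidase, with 90.9 and a level per kb of 46.3, and IMPDH2, which commits IMP to guanine nucleotides, with 9251 and a level per kb of 1806.

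Some enzymes that act next to the 9 gene products were described singly. DCTD, which deaminates dCMP to dUMP, had a base mean of 1734 and a level per kb of exons of 518 normalized counts. The salvage kinases DCK, for deoxycytidine, and TK2, the mitochondrial thymidine kinase, had base means of 586 and 663, with levels per kb of 189 and 64.1. All 3 levels per kb lay below those of TYMS and TK1. Per kb of exons, DCTD stood level with RRM1 at 518 and above RRM2, DUT and SAMHD1. By the same length DCK exceeded only SAMHD1, at 80.6, and TK2 lay below all 9 genes. No other length was used for these 3 enzymes, so this order may depend on the length. RRM2 alone went from 465 per kb of exons to 1159 per kb of the longest transcript. By base mean, DCTD lay below RRM1 at 2193 and RRM2 at 4256.

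The labelled cell types could be checked only for the pooled libraries. The 4 epithelial markers were all listed, with 138619 for KRT8, 67572 for KRT18, 13336 for CDH1 and 2479.7 for EPCAM as base means. Of the 4 pigment epithelium markers, 2 were listed, PMEL with 67.2 and BEST1 with 67.9, and RPE65 and RLBP1 were not. CDX2, a colon marker, had 248, while VIL1 and LGALS4 had 5.68 and 3.69, near the lowest base mean listed, 2.91. Of the 3 leukocyte markers, PTPRC alone was listed, with 3.69, also near that lowest value.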

How the data were processed

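RNA was measured in 12 libraries of HCT116 and RPE-1 cells, grouped by the sample titles. Per the labels, the authors depleted ribosomal RNA and used a directional kit, but poly(A) selection is the method in the paper, and which applies to these libraries is not settled here. Per the submitters' processing notes, the tools were bcl2fastq 2.20.0.422, Trimmomatic 0.39, cutadapt 3.3, SAMtools 1.12, featureCounts 2.0.1 and DESeq2 1.32.0 on hg38. The paper's methods give other versions of some tools, an alignment with segemehl, uniquely mapped reads and Ensembl gene models. HCT116 is not mentioned in the paper, so whether these steps apply to its libraries is unknown here.

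The deposited signal is the base mean, which the authors averaged from normalized counts over libraries not named in the tables. Each table also holds 5 columns of the authors' own comparison of Nutlin-3a with DMSO: the log2 fold change, its standard error, the test statistic, the p-value and the adjusted p-value. They were not used, so the planned tests were not made. No reads per library are given, and no interval is reported for any level.

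Lengths and coordinates came from GENCODE 44 on GRCh38, where the identifiers of 25836 listed genes matched. Its gene models differ from those the authors counted on. A level per kb is the base mean divided by the summed length of all exons of a gene. A percentile is the share of protein-coding genes with a lower level per kb, or with a lower base mean in the alternatives. Alternatives were other lengths, all listed genes, and a base mean of at least 10. The functions were tested on simulated data. Python 3.11.15, numpy 2.4.6, pandas 2.3.3 and matplotlib 3.10.9 were used.

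All 9 genes were named, and the 42 genes of the pathway list were given by count and range, with values for its highest and lowest gene and for DCK, DCTD and TK2. The value of 1 further gene that the rule names is not reported here. The genes, lists and measures were chosen with earlier results of these data known.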

Additional observations from a re-analysis of the deposited data

How the results depend on the processing

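No paired analysis was possible because the columns used carry no values per library, so leaving out a library, another normalization and another tool were not run either. The median percentile of the 9 genes by base mean, with no correction for length, was 83.5% among protein-coding genes, 89.5% among all listed genes and 82.2% among protein-coding genes with a base mean of at least 10. All 9 percentiles were higher among all listed genes, by 1.04 to 15.6 percentage points, the median base mean of all listed genes being 150, and all 9 were lower with the limit, which removes low genes by its construction.

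The length decided the levels per kb. The median of the 9 genes was 532 normalized counts per kb of exons, 1159 per kb of the longest transcript and 2007 per kb of coding sequence, as shorter lengths raise every level. The median of 120 for protein-coding genes is given per kb of exons only and cannot be set against the other lengths. The ratio of RRM2B to RRM2 was 3.49, 1.58 and 2.26 in the same order, and that of RRM2B to RRM1 was 3.13, 2.64 and 7.75. The ratio of RRM2 to RRM1 turned from 0.897 to 1.67 and 3.42, and that of TYMS to RRM2B was 1.45 and 1.92 but 0.846 by coding length. These ratios turn by construction with the share of exon bases that the longest transcript or the coding part holds. Depth limits could not be given.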
